A study of Mus musculus with 24 samples.

Results

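Described here are *Ido1* and 9 genes around it: *Ido2*, *Kmo*, *Kynu* and *Haao* of the kynurenine pathway, the tryptophanyl-tRNA synthetase gene *Wars*, and the aryl hydrocarbon receptor gene *Ahr* with *Ahrr*, *Cyp1a1* and *Tiparp*. They are 10 of the 53465 genes in the count table. The other 9 were listed for their place in the pathway, at a time when earlier results of these data were known. *Ido1* was chosen by its measured values, as the gene with the strongest enrichment in fluorescent cells that all 4 gut regions shared. The values of *Ido1*, across sorts and across regions, are therefore given as a description, with no test. The cells came from mice of the Guca2a-Venus strain, in which a bacterial artificial chromosome carries *Guca2a*, the guanylin gene, with its coding exons replaced by the yellow fluorescent protein Venus. The line came from a single founder, and fluorescence marks any cell in which the transgene's *Guca2a* promoter is active, so that the positive gate held several epithelial cell types. Epithelium of the duodenum, jejunum, ileum or colon was dissociated and sorted into positive cells (labelled GFP positive, carrying Venus) and negative cells (GFP negative), after dead cells, debris and CD45-bearing immune cells were gated out. Both sorts came from transgenic mice on standard chow with no treatment. The 8 groups of region and sort held 3 libraries each. Per the study, both sorts of a region were taken from the same mice, but the labels name no mouse, age or sex, so the tests treat libraries that may share an animal as separate.

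Tryptophan taken up from the diet is used for protein, for serotonin, or is broken down through kynurenine. IDO1 opens the ring of tryptophan at the entry to the kynurenine pathway, its neighbour IDO2 is a related enzyme of weaker activity, and KMO, KYNU and HAAO carry kynurenine on towards quinolinate and NAD. WARS loads tryptophan onto its tRNA and, like IDO1, is known as a product of interferon-gamma signalling. The aryl hydrocarbon receptor is a transcription factor activated by ligands that include kynurenine, microbial indoles and dietary or environmental aromatic compounds. With its partner ARNT it drives *Cyp1a1*, a monooxygenase that clears many of these ligands, *Tiparp*, an ADP-ribosyltransferase, and *Ahrr*, a repressor that feeds back on the receptor. In the gut this receptor is known for its roles in barrier epithelium and in mucosal lymphocytes.

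Between 7458616 and 23063124 counts fell on genes in a library, with a median of 15379489.5, and mitochondrial genes took 32.3% to 80.7% of them. Over the 24 pairs of replicates, the chi-square of the counts was 26.5 to 177 times its degrees of freedom, so the spread exceeded sampling noise. Levels are CPM, read counts scaled to a common library size after TMM adjustment, and a floor of 3 counts, equal to 0.106 to 0.360 CPM, was taken as the limit of detection, which covers counting error only. Adjusted p values come from the quasi-likelihood test of edgeR and were corrected by Benjamini-Hochberg over the 15044 genes that passed the filter on low counts, with a threshold of 0.05. *Guca2a* was higher in positive cells of every region, past the threshold, with log2 fold changes of 5.76, 2.65, 2.86 and 2.69 from duodenum to colon. The 7 goblet cell markers all passed the test as higher in positive cells of each of the 4 regions, the 5 Paneth cell markers did so in the small intestine and none in the colon, and of 8 enterocyte markers 1, 7, 8 and 4 did so from duodenum to colon, with 2 lower in the duodenum. The mitochondrial share was lower in every positive than in every negative library of the duodenum (32.3% to 46.6% against 64.6% to 76.4%), the jejunum (47.1% to 60.6% against 61.2% to 78.8%) and the ileum (41.0% to 55.4% against 64.7% to 70.9%), and the sorts overlapped in the colon. The duodenal positive libraries also had fewer counts, 7458616 to 11165593 against 15086863 to 21114053. These totals include the mitochondrial counts, so they do not give the depth on nuclear genes. When the fit held nuclear protein-coding genes alone, the duodenal sort differences of *Ido1* and *Wars* were 8.34 and 3.64 on the log2 scale. In such sorted bulk RNA, fewer cells of a type and less RNA per cell cannot be told apart.

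Of the 10 genes, 5 were tested: *Ido1*, *Wars*, *Ahr*, *Cyp1a1* and *Tiparp*. The other 5 lay at or near the floor. *Ido2* (chr8:24531892-24576333, minus strand, GRCm38) had 9 counts in all, 5 in a duodenal and 4 in an ileal library of positive cells, and 0 in the other 22 libraries. *Kmo*, for kynurenine monooxygenase (chr1:175620381-175662116, plus), had 13 counts over 7 libraries, with at most 5 in one. *Kynu*, for kynureninase (chr2:43555329-43682715, plus), had 6 counts over 3 libraries and at most 4. *Haao*, for 3-hydroxyanthranilate dioxygenase (chr17:83831156-83847963, minus), had 17 counts over 8 libraries and at most 4. *Ahrr* (chr13:74211118-74292331, minus) had 11 counts over 5 libraries and at most 4. At this depth the steps that follow kynurenine towards quinolinate were thus at the limit of detection in all 8 groups, and no difference between groups could be seen for these 5 genes.

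*Ido1* (chr8:24584136-24597009, minus) lies 7803 bases from *Ido2* on the same strand. Reads of the one could in principle be lost to a near-identical copy, so their sequences were compared. None of the 1776 stretches of 50 bases in *Ido1* occurs in another annotated gene, and the longest stretch its coding sequence shares with that of *Ido2* has 15 bases, at coding positions 238 to 252 of both. It is shown, all shared, because it bounds how far reads of the pair can be confused.
Ido1 and Ido2: CAGCGCCTGGCACAC

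*Ido1* stood in all 4 regions far higher in positive than in negative cells, and its level in positive cells was highest in the duodenum and lowest in the colon. In the duodenum the positive libraries held 925, 1252 and 952 counts and the negative libraries 3, 9 and 2. These are 94.7, 102.8 and 107 CPM against 0.210, 0.584 and 0.144 CPM. The jejunum had 201, 112 and 68 counts in positive cells against 2, 6 and 4. In the ileum 162, 348 and 167 counts stood against 1, 11 and 2. The colon had 30, 47 and 30 counts in positive cells against 5, 0 and 0. In no region did the positive and negative libraries overlap. From duodenum to colon the positive means were 102 ± 6.29, 8.02 ± 4.23, 14.0 ± 6.27 and 2.53 ± 0.718 CPM (SD, n = 3). The negative means were 0.313 ± 0.237, 0.260 ± 0.118, 0.180 ± 0.183 and 0.20 ± 0.346 CPM in the same order, all close to the floor. Fitted log2 fold changes were 8.28 (SE 0.65), 4.88 (SE 0.62), 6.12 (SE 0.62) and 3.96 (SE 0.75). Since the negative levels rest on 14, 12, 14 and 5 counts in all, these folds follow single libraries. Without negative library 2 the duodenal value was 9.08 and the ileal value 7.44. Without the colonic negative library that held 5 counts the colonic value was 8.29, and without colonic negative library 2 it was 3.19. Against the floor of the 2 colonic libraries at 0 the positive mean was at least 10.6-fold higher.

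**Figure D1:**
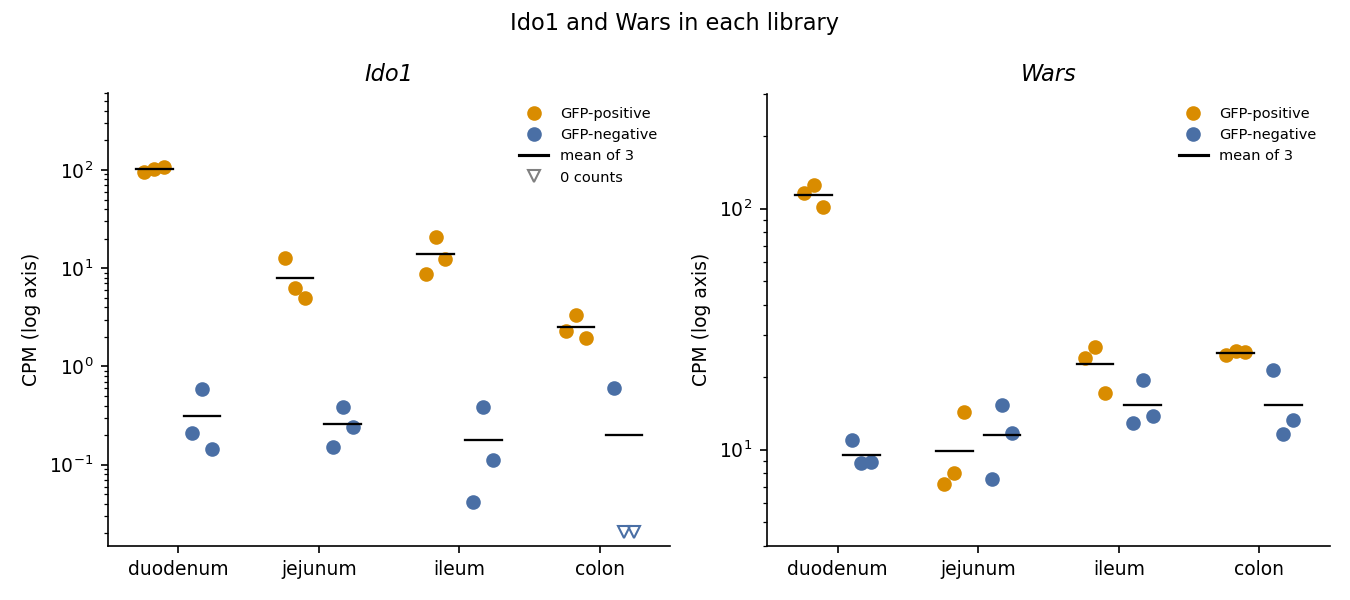
CPM of *Ido1* and *Wars* on log axes in each of the 24 libraries, by region and sort (points: libraries, lines: means of 3, open triangles: 0 counts, drawn at the foot of the axis). *Ido1* is higher in every positive than in every negative library of its region, whereas the *Wars* libraries stand far apart in the duodenum alone, at 102 to 125 against 8.82 to 10.9 CPM.

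The order of *Ido1* in positive cells was duodenum, ileum, jejunum and colon. The duodenum exceeded the ileum by 2.86 on the log2 scale (SE 0.47), the jejunum by 3.66 (SE 0.49) and the colon by 5.33 (SE 0.54), with no overlap of libraries. The jejunum and ileum, neighbours in the order, overlapped (log2 fold change -0.80, SE 0.45). The ileum exceeded the colon by 2.46 (SE 0.49) and the jejunum exceeded it by 1.67 (SE 0.48), without overlap in either case, and without jejunal positive library 1 the latter difference was 1.15. In negative cells *Ido1* lay too near the floor for the regions to be ordered.

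By group medians, the goblet and Paneth marker sums of positive cells had the region order of *Ido1*: duodenum, ileum, jejunum and colon. The summed level of the 7 goblet markers had medians of 57464, 4016, 6123 and 3432 CPM in positive cells from duodenum to colon, against 364, 288, 299.9 and 919 CPM in negative cells. The 5 Paneth markers summed to medians of 33297, 5016, 5780 and 22.4 CPM in positive cells and 222, 459, 248 and 9.38 CPM in negative cells. Within the positive libraries of a region the order was another: the library with most *Ido1* held the lowest goblet sum in the duodenum (52164 CPM), the ileum (4083) and the colon (2551), and the middle one in the jejunum (4016). In the colon *Ido1* was higher in every positive than in every negative library although no Paneth marker passed there. Colonic positive cells also had more *Ido1* but lower Paneth sums than negative cells of the small intestine. The 8 enterocyte markers summed to medians of 505, 2991, 2922 and 393 CPM in positive cells from duodenum to colon. In negative cells these medians were 587, 523, 283 and 99.7 CPM. The 10 markers of immune cells summed to at most 12.6 CPM in any library, and none of the 6 that were tested was called higher in positive cells. The 6 dendritic cell markers were all below the filter. Both sums were highest among the ileal positive libraries in library 2, which also had the most *Ido1* of them: 11.9 CPM of immune markers against 1.67 and 3.53 CPM, and 1.74 CPM of dendritic markers against 0.323 and 0.0736 CPM. Without that library the ileal sort difference of *Ido1* was 5.70 on the log2 scale. Of 5 endothelial markers 2 were tested, and *Clec14a* was called higher in positive cells of the duodenum, with 22, 3 and 2 counts against 0 in each negative library. *Pecam1*, *Cdh5* and *Kdr* had 0 counts in the duodenal positive libraries. The part of goblet, Paneth, enterocyte, immune, dendritic and endothelial cells in the level of *Ido1* was not tested.

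**Figure D2:**
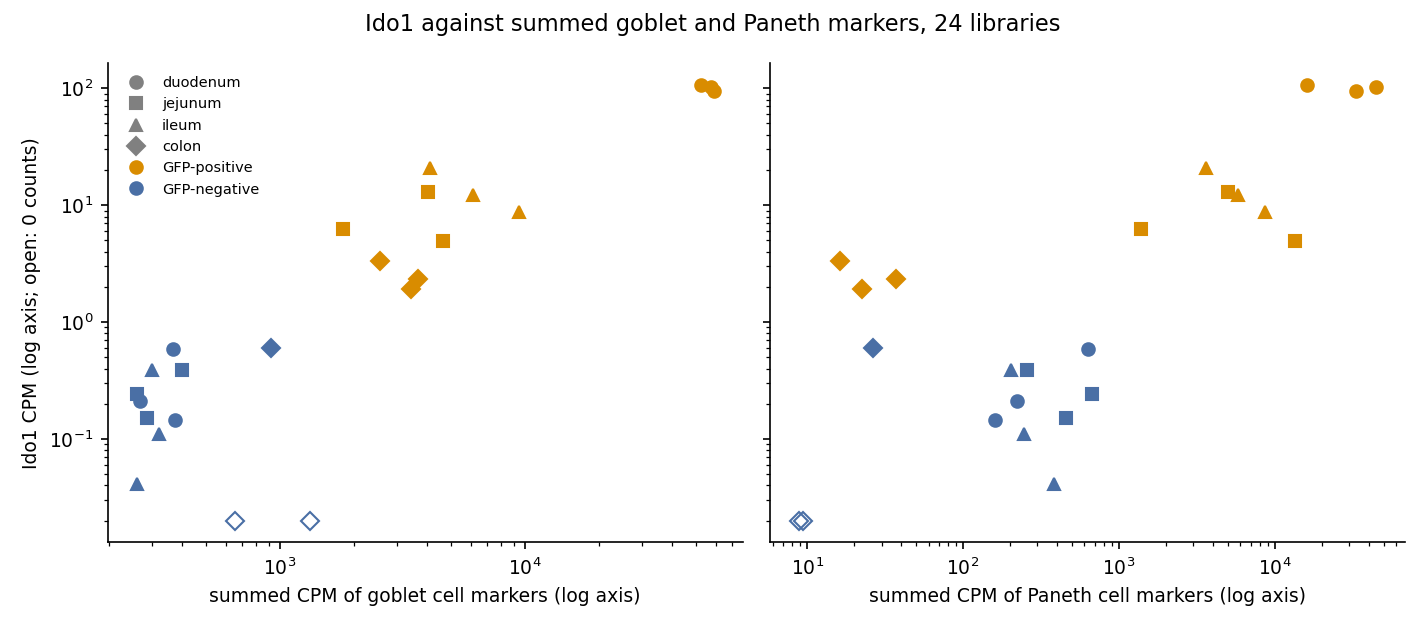
*Ido1* CPM against the summed CPM of 7 goblet markers (left) and 5 Paneth markers (right), all axes logarithmic, 1 point for each of the 24 libraries (shape: region, colour: sort, open: 0 counts). Positive libraries of the duodenum lie at the upper right of both panels, and positive libraries of the colon have 16.1 to 37.0 CPM of Paneth markers with 1.94 to 3.33 CPM of *Ido1*.

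Over the 24 libraries, the genes whose log2 level followed *Ido1* most closely by Pearson's r were *Fcgbp* (0.949), *Fndc3a* (0.942), *Tff3* (0.936), *Zg16* (0.932) and *Rock2* (0.927). *Fcgbp*, *Tff3* and *Zg16* are goblet secretory products and belong to the 7 goblet markers above. *Fcgbp* stood at 33004 ± 503 CPM in positive and 189 ± 34.0 CPM in negative cells of the duodenum, and at 994 ± 280 against 282 ± 109 CPM in the colon (SD, n = 3). *Fndc3a*, by contrast, spanned 61.2 ± 9.13 against 13.9 ± 6.03 CPM in the duodenum and 23.5 ± 1.45 against 11.5 ± 1.05 CPM in the colon. By Spearman's rho the 5 closest were *Parp12* (0.923), *Trim25* (0.918), *Spats2l* (0.912), *Ptprr* (0.903) and *Stim2* (0.90), and 0 of these were among the 5 by Pearson's r. None of them is among the 7 goblet markers, so the goblet genes at the head of the list depend on the coefficient used. Of the other members tested, *Wars* had an r of 0.724 with *Ido1*, *Cyp1a1* 0.484, *Tiparp* 0.146 and *Ahr* -0.18. The libraries share region, sort and depth, so these coefficients describe the set and carry no p.

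*Wars* (chr12:108860030-108894174, minus) rose in positive cells of the duodenum alone among the regions. Its duodenal positive libraries held 116, 125 and 102 CPM and its negative libraries 10.9, 8.82 and 8.87 CPM. The means were 114 ± 11.7 and 9.54 ± 1.21 CPM (SD, n = 3), a log2 fold change of 3.58 (SE 0.32, adjusted p = 2.87e-09). In that comparison 8.88% of genes were higher and 8.08% lower in positive cells. In the jejunum 7.22, 7.98 and 14.4 CPM in positive cells overlapped with 7.59, 15.3 and 11.7 CPM in negative cells (log2 fold change -0.23, SE 0.30, adjusted p = 0.554, with 18.3% of genes higher and 25.6% lower). In the ileum 24.1, 26.6 and 17.1 CPM overlapped with 12.9, 19.4 and 13.9 CPM (0.56, SE 0.29, adjusted p = 0.138, with 17.9% higher and 20.6% lower). In the colon 24.8, 25.6 and 25.4 CPM lay above 21.3, 11.6 and 13.3 CPM without overlap, but the difference missed the threshold (0.72, SE 0.30, adjusted p = 0.112, with 9.31% higher and 3.80% lower). Without colonic negative library 1 it was 1.03 with an adjusted p of 0.0364. The sort difference of *Wars* itself depended on the region (interaction, adjusted p = 4.08e-06), as for 17.5% of genes. No 50-base stretch of *Wars* occurs in another annotated gene.

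Positive cells of the regions also differed in *Wars* (joint adjusted p = 3.37e-10), as in 43.3% of all genes tested. Their means ran from 114 CPM in the duodenum to 25.3 ± 0.430 in the colon, 22.6 ± 4.91 in the ileum and 9.85 ± 3.93 in the jejunum. The duodenum exceeded the colon by 2.17 on the log2 scale (SE 0.30, adjusted p = 4.13e-06, with 12.4% of genes passing in this contrast). The ileum and colon overlapped and did not pass (-0.16, SE 0.29, adjusted p = 0.753, 21.7% of genes passing). The jejunum lay below the ileum (log2 fold change -1.2, SE 0.30, adjusted p = 0.0130, 5.15% of genes passing), a call that was lost without jejunal positive library 1, jejunal positive library 2 or ileal positive library 2, with adjusted p values of 0.122, 0.106 and 0.0732. *Ido1* and *Wars* thus shared the duodenum as their highest group, but their lowest positive group was the colon for *Ido1* and the jejunum for *Wars*. Per kilobase of exon, *Ido1* stood at 55.6 and *Wars* at 33.1 CPM in positive cells of the duodenum, and at 1.38 and 7.34 in the colon. In negative cells the means of *Wars* were 9.54, 11.5, 15.4 and 15.4 CPM from duodenum to colon, and no difference passed (joint adjusted p = 0.295, with 12.3% of genes passing, or 0.0181 with library size as the only scaling).

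**Figure D3:**
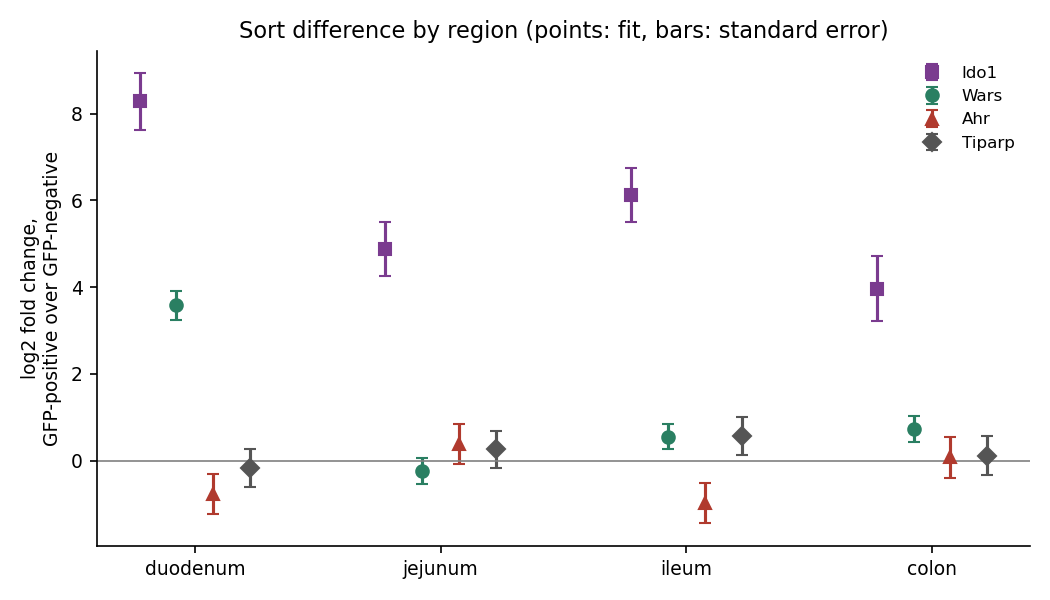
Fitted log2 fold change of positive over negative cells in each region for *Ido1*, *Wars*, *Ahr* and *Tiparp* (points: fit, bars: standard error, 3 libraries against 3). *Ido1*, chosen by this contrast, lies between 3.96 and 8.28, *Wars* reaches 3.58 in the duodenum and stays between -0.23 and 0.72 elsewhere, and *Ahr* and *Tiparp* lie between -0.98 and 0.57.

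*Ahr*, the receptor gene (chr12:35497974-35535038, minus), was present in every library, at 2.26 to 9.53 CPM. In the duodenum its positive libraries had 4.10, 2.87 and 6.53 CPM and its negative libraries 5.82, 9.53 and 7.57 CPM (log2 fold change -0.77, SE 0.47, adjusted p = 0.265). In the jejunum 6.01, 7.31 and 4.74 CPM overlapped with 6.68, 4.37 and 2.84 CPM (0.38, SE 0.46, adjusted p = 0.524). In the ileum 2.26, 3.24 and 3.24 CPM lay below 4.17, 8.11 and 4.88 CPM without overlap, a difference that missed the threshold (-0.98, SE 0.47, adjusted p = 0.0972). It passed at -1.16 (adjusted p = 0.0290) when the genes were limited to those with at least 10 counts in every library. In the colon 6.57, 2.55 and 3.03 CPM overlapped with 2.64, 6.37 and 2.38 CPM (0.08, SE 0.47, adjusted p = 0.947). Neither the positive (joint adjusted p = 0.274) nor the negative cells (0.457) differed between regions by this test, and the interaction of sort and region did not pass (0.313). Of its exon bases, 127 (2.06%) overlap the lincRNA *Gm48236* on the opposite strand, and the strand setting of the counting is not given in the sources used here.

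Transcripts of the receptor's targets were read beside their promoters. The core of the element bound by the receptor with ARNT is GCGTG, read CACGC on the other strand, and was searched in the 300 bases from 250 before to 50 after the start in RefSeq (GRCm38.p6). Of 32851 promoters, 32.4% hold it, 11.1% hold at least 2 matches and 3.91% at least 3. The RefSeq table gave promoters for 5 of the 10 genes: *Kmo* with 0 matches, *Haao*, *Cyp1a1* and *Tiparp* with 1 and *Ahrr* with 3. Those of the 3 receptor targets are shown, 5′ to 3′ on the gene's strand, with each match in capitals. A match is a description of letters and not a binding site. That of *Cyp1a1* is chr9:57697363-57697662 (plus), with its match at -54 from the start. That of *Tiparp* is chr3:65528197-65528496 (plus), with a match at -170. That of *Ahrr* is chr13:74292282-74292581 (minus), with matches at -107, -82 and -27.
Cyp1a1: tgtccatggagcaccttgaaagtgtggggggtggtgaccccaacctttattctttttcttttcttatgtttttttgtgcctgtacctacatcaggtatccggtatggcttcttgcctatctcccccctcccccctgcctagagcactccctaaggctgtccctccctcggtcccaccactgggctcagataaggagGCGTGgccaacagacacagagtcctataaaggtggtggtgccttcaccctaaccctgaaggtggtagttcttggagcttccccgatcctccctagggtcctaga
Tiparp: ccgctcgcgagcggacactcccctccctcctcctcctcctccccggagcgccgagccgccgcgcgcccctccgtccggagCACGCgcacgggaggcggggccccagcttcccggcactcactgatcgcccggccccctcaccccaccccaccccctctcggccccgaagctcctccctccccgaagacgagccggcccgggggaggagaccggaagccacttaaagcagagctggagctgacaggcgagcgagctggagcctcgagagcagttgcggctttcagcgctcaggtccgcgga
Ahrr: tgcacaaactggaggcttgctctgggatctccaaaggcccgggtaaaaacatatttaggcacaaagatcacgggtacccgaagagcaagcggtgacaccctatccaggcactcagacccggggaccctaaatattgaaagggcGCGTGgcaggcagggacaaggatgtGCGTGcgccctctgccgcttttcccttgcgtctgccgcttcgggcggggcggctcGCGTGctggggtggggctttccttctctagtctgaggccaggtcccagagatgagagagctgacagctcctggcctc

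*Cyp1a1* (chr9:57687928-57703824, plus) was detected in the duodenum and was at or near the floor in the other regions. In the duodenum the positive libraries held 18, 60 and 73 counts (1.84, 4.93 and 8.22 CPM) and the negative libraries 5, 27 and 46 counts (0.351, 1.75 and 3.32 CPM). Both sorts overlapped, with means of 5.0 ± 3.19 and 1.81 ± 1.48 CPM (SD, n = 3), and the difference did not pass (log2 fold change 1.46, SE 1.17, adjusted p = 0.417). Elsewhere no library exceeded 6 counts. Those 6 counts lay in a colonic and 5 in an ileal library of positive cells, and the 3 colonic negative libraries had 0.

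*Cyp1a1* passed the filter on low counts through its duodenal libraries alone. Without the filter, in a fit of 32904 genes, its regional difference passed in positive (joint adjusted p = 5.82e-08) and in negative cells (2.32e-07). The values with the filter (2.94e-04 and 0.00101) belong to a gene kept by the groups where it is high, and add no support. With the filter, the same tests passed in 43.3% and 12.3% of all genes. Its mean in positive cells of the duodenum was at least 25.9-fold above the floor of the jejunum. In negative cells the duodenal mean was at least 9.0-fold, 13.7-fold and 6.49-fold above the floors of jejunum, ileum and colon.

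Of the 2737 stretches of 50 bases in *Cyp1a1*, 94 (3.43%) also occur in its neighbour in sequence *Cyp1a2*, so reads from these could be assigned to neither gene. *Cyp1a2* itself had 5 counts over all libraries. The longest identical run in the coding sequences has 137 bases, at positions 193 to 329 of *Cyp1a1* and 184 to 320 of *Cyp1a2*, and is shown as the part of the transcript where counts of the pair are uncertain.
Cyp1a1 and Cyp1a2: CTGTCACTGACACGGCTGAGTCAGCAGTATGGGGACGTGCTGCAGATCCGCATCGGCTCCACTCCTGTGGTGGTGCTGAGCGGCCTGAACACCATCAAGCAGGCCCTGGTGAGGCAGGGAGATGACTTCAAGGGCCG

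*Tiparp* (chr3:65528410-65555518, plus), the other target measured, did not follow *Cyp1a1*. In the duodenum its positive libraries had 7.99, 17.7 and 9.23 CPM and its negative libraries 9.33, 18.7 and 11.2 CPM (log2 fold change -0.17, SE 0.44, adjusted p = 0.837). In the jejunum 17.3, 22.8 and 22.7 CPM stood beside 16.4, 20.7 and 15.4 CPM (0.26, SE 0.44, adjusted p = 0.659). In the ileum 12.2, 21.2 and 23.4 CPM stood beside 8.50, 10.7 and 19.2 CPM (0.57, SE 0.44, adjusted p = 0.320). In the colon 7.11, 9.34 and 8.97 CPM stood beside 1.44, 11.9 and 9.86 CPM (0.11, SE 0.45, adjusted p = 0.912). The sorts overlapped in every region.

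In positive cells the mean of *Tiparp* was 20.9 ± 3.13 CPM in the jejunum, 18.9 ± 5.91 in the ileum, 11.6 ± 5.26 in the duodenum and 8.48 ± 1.2 in the colon. The joint test of the regions missed the threshold narrowly (adjusted p = 0.0523) and passed with DESeq2 (0.0304), with RLE factors (0.0422), with library size alone (0.00746), without the filter (0.00550) and with the index as covariate (0.0307). The jejunum exceeded the colon by 1.30 on the log2 scale (SE 0.45, adjusted p = 0.0239, 33.9% of genes passing), which no longer passed without jejunal positive library 2 or without any single one of the 3 colonic positive libraries (adjusted p from 0.0573 to 0.0865). Neither negative cells (joint adjusted p = 0.340) nor the interaction (0.820) passed. The gene shares 223 exon bases (5.12%) with the pseudogene *4931440P22Rik* on the opposite strand.

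**Figure D4:**
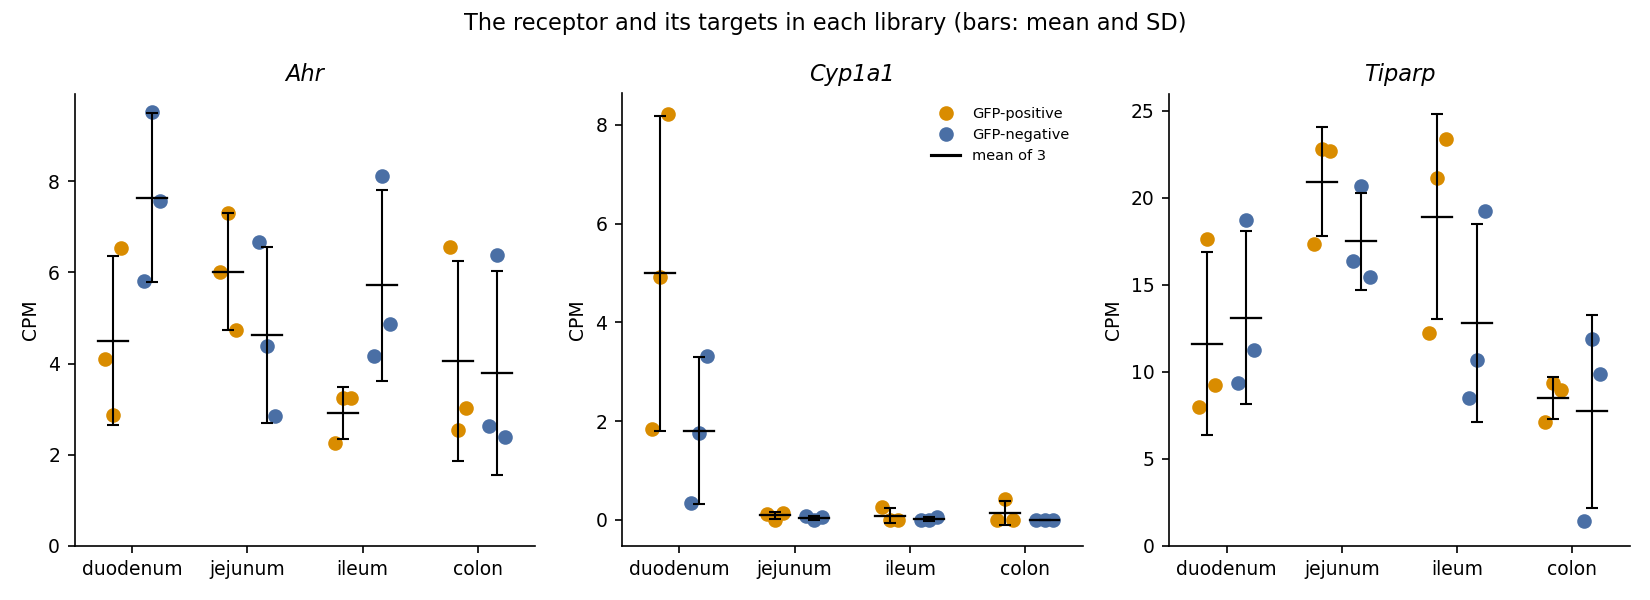
CPM of *Ahr*, *Cyp1a1* and *Tiparp* on linear axes in each library, by region and sort (points: libraries, bars: mean and SD of 3). *Cyp1a1* reaches 8.22 CPM in the duodenum and at most 0.425 CPM elsewhere, while the sorts overlap for *Tiparp* in all 4 regions and for *Ahr* in all but the ileum.

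Other genes of the same pathways were counted in lists. Of 8 other kynurenine enzymes, 4 passed the filter, and *Tdo2*, *Aadat*, *Acmsd* and *Qprt* did not, with at most 10 counts in a library. None of the 4 passed the test in duodenum or colon, and 1 was higher and 1 lower in jejunum and in ileum, where 18.3% and 17.9% of all genes were higher and 25.6% and 20.6% lower. In jejunum and ileum *Kyat1*, a kynurenine aminotransferase, was higher in positive cells, with 30.9, 6.47 and 22.6 against 3.72, 2.32 and 4.66 CPM in the jejunum (log2 fold change 2.48, adjusted p = 7.86e-04) and 2.80, 7.93 and 18.98 against 2.39, 1.27 and 3.33 CPM in the ileum (2.09, adjusted p = 0.00431), where the sorts overlapped. Without ileal positive library 3 the ileal call was lost (1.2, adjusted p = 0.113). *Got2*, the mitochondrial aspartate aminotransferase that also transaminates kynurenine, was lower there, with 0.383, 1.51 and 2.84 against 10.8, 6.30 and 8.35 CPM in the jejunum (-2.43, adjusted p = 2.62e-04) and -1.88 in the ileum (adjusted p = 0.00295). The list's medians were -0.58, 0.24, -0.20 and -0.22 from duodenum to colon, beside -0.16, -0.28, -0.27 and 0 over all genes tested.

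Of 8 genes that make NAD, 7 were tested. None passed in duodenum or colon, 1 was higher and 1 lower in the jejunum, and 2 were higher and 2 lower in the ileum, against the same shares of all genes, 18.3% and 25.6% in the jejunum and 17.9% and 20.6% in the ileum. *Naprt*, which starts NAD synthesis from nicotinate, had 40.5, 41.9 and 41.8 CPM in positive cells of the jejunum against 12.4, 11.7 and 16.5 CPM (1.61, adjusted p = 7.37e-05), and a log2 fold change of 1.92 in the ileum (adjusted p = 1.22e-05). *Nmnat2*, an adenylyltransferase of NAD synthesis, had 0 counts in every positive library of jejunum and ileum, and at most 11 in the negative libraries, whose mean was at least 1.85-fold and 1.78-fold above the positive floor. Both calls of *Nmnat2* were lost without the filter (adjusted p = 0.0592 and 0.0658) and without any one of the 3 positive libraries of the region or, in the jejunum, negative library 2, with adjusted p values up to 0.0671 and 0.0682. The jejunum then had no lower gene and the ileum 1. *Nmnat3*, the mitochondrial form, was lower in the ileum (-2.26, adjusted p = 0.00150). The count of higher genes in the ileum was 1 without positive library 2 or 3 or negative library 1 or 2. The medians were -0.71, -0.03, 0.71 and 0.52.

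Of 10 genes that carry tryptophan or turn it to serotonin 9 were tested, of which 2, 6, 7 and 2 were higher and 1, 2, 2 and 2 lower in positive cells from duodenum to colon. Of all genes 8.88%, 18.3%, 17.9% and 9.31% were higher and 8.08%, 25.6%, 20.6% and 3.80% lower. With single libraries left out the higher count was 1 to 2 in the duodenum and in the colon, and the lower count in the colon was 1 to 2. With at least 10 counts in every library the higher counts were 0, 2, 2 and 0. *Slc36a4*, an amino acid transporter that takes tryptophan and proline, had 72 to 112 counts in positive libraries of the duodenum against 0 to 2 in negative libraries, at least 46.1-fold higher. It was at least 10.2-fold higher in the jejunum, and its log2 fold change was 3.28 in the ileum and 2.65 in the colon. *Slc6a19*, the brush-border carrier of neutral amino acids, had 357, 317 and 421 CPM in positive cells of the jejunum against 25.7, 30.6 and 37.6 CPM (3.55, adjusted p = 1.69e-06) and a log2 fold change of 4.52 in the ileum (adjusted p = 1.37e-07), against 0.48 in the duodenum (adjusted p = 0.508). *Tph1*, the hydroxylase of serotonin synthesis and also among the enteroendocrine markers here, was lower in positive cells of all 4 regions, with 1.13, 1.81 and 1.46 CPM against 20.8, 22.9 and 33.2 CPM in the duodenum (-4.11, adjusted p = 5.65e-08) and -1.77 in the colon (adjusted p = 0.00155). The 6 enteroendocrine markers summed to medians of 28.7 CPM in positive and 829 CPM in negative cells of the duodenum, and their part in the level of *Tph1* was not tested. The medians of the list were 0.48, 1.67, 2.05 and -0.07.

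The 6 partners of the receptor were all tested. In positive cells 1 was higher in each region of the small intestine, where 8.88%, 18.3% and 17.9% of all genes were. The colonic count of higher partners is not reported here. From duodenum to colon 0, 3, 3 and 1 were lower, where 8.08%, 25.6%, 20.6% and 3.80% of all genes were. *Arnt*, the partner in DNA binding, was the one higher in duodenum, jejunum and ileum (log2 fold changes 0.96, 1.09 and 1.07, with adjusted p values of 0.0251, 0.00362 and 0.00461). The duodenal count of higher partners was 0 when any one of the 6 duodenal libraries other than positive library 2 was left out. The jejunal count of higher partners was 2 in 8 of 32 alternatives, and the colonic count of lower partners ranged from 0 to 2. *Arnt* is named after its values were seen. *Hsp90ab1*, the chaperone that holds the unliganded receptor, was lower in jejunum (106 ± 42.9 against 504 ± 170 CPM, SD, n = 3; -2.25, adjusted p = 7.91e-06) and ileum (-1.71, adjusted p = 2.34e-04). The co-chaperone gene *Ptges3* was lower in jejunum (-1.42, adjusted p = 0.0356) and ileum (-1.35, adjusted p = 0.0497), and the calls were lost in 7 and 17 of 32 alternatives, with adjusted p values up to 0.338 without jejunal negative library 3 and 0.217 without ileal negative library 3. The medians were -0.22, -0.18, -0.40 and -0.88.

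Of 8 other targets of the receptor 5 were tested, and *Cyp1a2*, *Cyp1b1* and *Aldh3a1* had at most 7 counts in a library. *Nqo1*, a quinone reductase, was lower in positive cells of the duodenum, with 6.45, 10.4 and 10.5 CPM against 21.5, 39.1 and 33.2 CPM (-1.78, adjusted p = 0.00289), and of the jejunum (-2.22, adjusted p = 7.21e-05). *Nfe2l2*, the transcription factor NRF2, was higher in the jejunum (0.87, adjusted p = 0.00423). No other call was made in this list, against the shares of all genes given above. Its medians were -0.05, -0.42, -0.32 and 0.30.

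Interferon-gamma is the known inducer of *Ido1* and *Wars*, so the genes of its receptor, its signalling and its targets were listed. Of 24, 21 were tested, and *Cxcl9*, *Cxcl10* and *Gbp4* fell below the filter. In positive cells 5, 10, 12 and 5 were higher and 0, 0, 0 and 1 lower from duodenum to colon, where 8.88%, 18.3%, 17.9% and 9.31% of all genes were higher. The duodenal count was 2 or 3 with any one library of the duodenum left out and 8 with library size alone. The ileal count was 6 without ileal positive library 2, the one with the highest immune and dendritic marker sums of its group, whose part was not tested, and the colonic count 3 without colonic negative library 2. With at least 10 counts in every library, the counts in jejunum, ileum and colon were 6, 6 and 3. The medians were 0.56, 1.35, 1.38 and 0.74, above those of all genes in each region.

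*Jak2*, a kinase of the receptor, was higher in all 4 regions, with 48.7, 54.6 and 42.0 CPM in positive cells of the duodenum against 16.1, 16.7 and 11.8 CPM (1.70, adjusted p = 2.35e-04) and log2 fold changes of 2.74, 2.5 and 1.39 in jejunum, ileum and colon. *Gbp2*, a guanylate-binding protein, had 8.50, 10.1 and 5.74 CPM against 0.491, 0.0648 and 0.216 CPM in the duodenum (4.95, adjusted p = 0.00372) and 2.70 in the ileum (adjusted p = 0.0337), where 1 positive library had 11.6 CPM and another 0.431. The ileal call was lost without the library of 11.6 CPM, ileal positive library 2 (0.85, adjusted p = 0.575), and without ileal negative library 1 or 3 (adjusted p = 0.115 and 0.126). *Cd274*, for the checkpoint ligand PD-L1, was higher in jejunum (3.28, adjusted p = 0.00416) and ileum (3.64, adjusted p = 0.00169) and at least 9.05-fold higher in the colon, while 1.87 in the duodenum did not pass (adjusted p = 0.147). *Batf2* of this list is also an enterocyte marker here, and enterocyte markers were higher in positive cells from jejunum to colon. Their part in these differences was not tested.

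The other 19 cytosolic aminoacyl-tRNA synthetases were counted beside *Wars*. In the duodenum 3 were higher and 1 lower in positive cells, where 8.88% and 8.08% of all genes were, and the median was 0.21 against the 3.58 of *Wars*. In jejunum, ileum and colon none was higher and 11, 8 and 1 were lower, where 25.6%, 20.6% and 3.80% of all genes were, with medians of -0.75, -0.59 and -0.22. With library size as the only scaling, the jejunal count of lower synthetases was 6. *Vars*, for valine, had 0.511, 0.892 and 6.49 CPM in positive cells of the jejunum against 19.8, 23.3 and 29.2 CPM (-3.22, adjusted p = 6.51e-06), -3.35 in the ileum (adjusted p = 4.12e-06) and -0.43 in the duodenum (adjusted p = 0.545). *Farsb*, a subunit for phenylalanine, fell by 2.61 on the log2 scale in the jejunum (adjusted p = 1.15e-05) and by 1.64 in the ileum (adjusted p = 0.00174). *Dars*, for aspartate, was lower in all 4 regions, from -1.14 in the colon (adjusted p = 0.0433) to -2.11 in the jejunum (adjusted p = 6.21e-05). Its colonic call was lost in 9 of 32 alternatives, with adjusted p values up to 0.282, and its duodenal call in 6 of 32, with 0.204 when library size was the only scaling. Markers of stem and proliferating cells were lower there too, 5 of 5 in jejunum and ileum, 1 of 5 in the duodenum and 2 of 5 in the colon, and their part in the result was not tested.

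**Figure D5:**
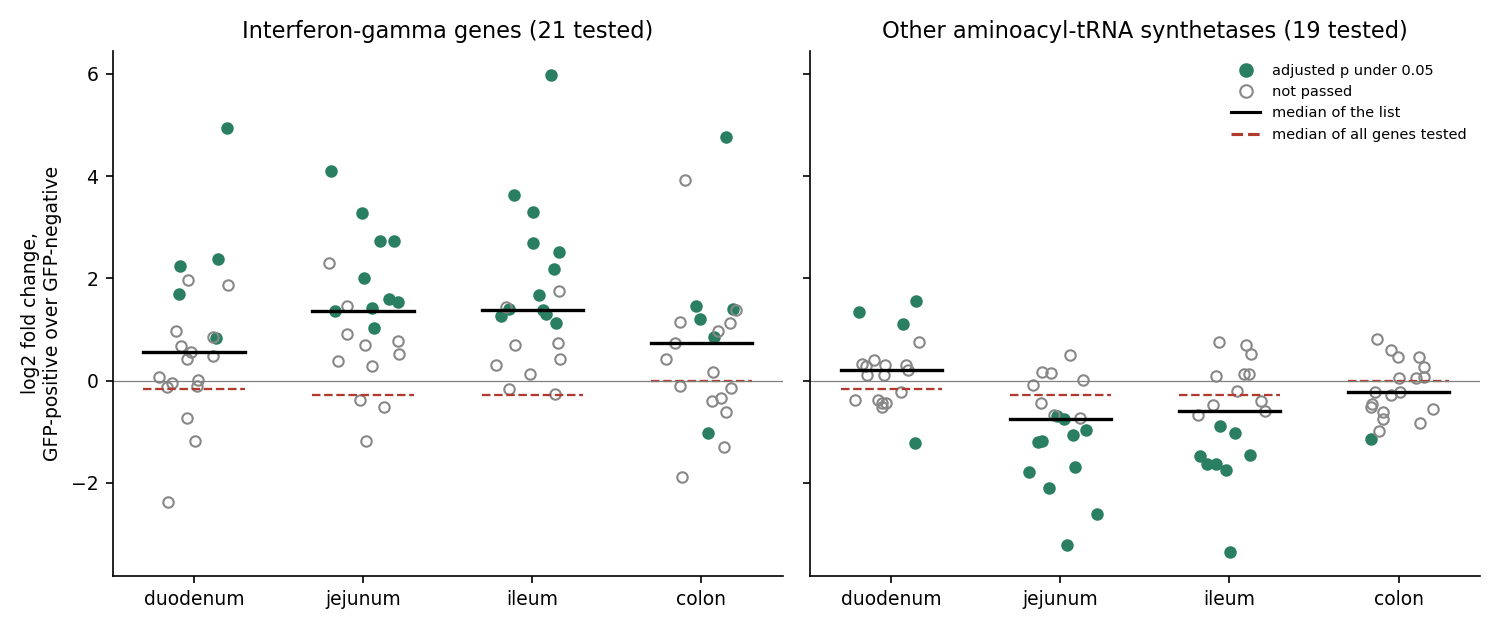
Log2 fold change of positive over negative cells for each tested gene of the interferon-gamma list (left) and of the other cytosolic aminoacyl-tRNA synthetases (right), by region (filled: adjusted p under 0.05, open: not passed, black line: median of the list, dashed line: median of all genes tested). The interferon-gamma medians run from 0.56 to 1.38, and the synthetase medians from 0.21 in the duodenum to -0.75 in the jejunum.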

How the data were processed

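RNA of sorted epithelial cells was sequenced (pico-input stranded total RNA kit, single-end reads). Per the study's methods and processing notes, the authors aligned reads to GRCm38 with STAR (2.5.1) and deposited raw counts per gene, with no normalisation. The annotation and strand setting are not given in the sources used here. Groups were taken from the labels. The p-values set a difference between groups against the spread between libraries within groups, estimated over all 8 groups together.

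Names and positions are from GENCODE M21, which held 53274 of 53465 genes. In R 4.3.3, edgeR 4.0.16 (limma 3.58.1) filtered genes (filterByExpr, minimum count 10, total 15), scaled them by TMM and fitted 1 coefficient per group over 24 libraries. A standard error is the log2 fold change divided by the square root of F. Likeness to *Ido1* used log2 CPM with a prior count of 2. The fit was also run on simulated data with independent libraries, the same spread for every gene and changes in well-expressed genes alone. That setting does not speak to shared animals or to genes near the floor.

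The members and lists were chosen with earlier results of these data known. Named were all 10 members, up to 3 genes of each list with the largest mean change among those that passed in any region, and the 5 genes most like *Ido1*. *Arnt*, *Batf2* and genes below the filter were named beyond that rule, and 1 gene that the rule named is not reported here. Alternatives were DESeq2 1.42.0, RLE factors, library size alone, no filter, a minimum of 10 counts in each library, nuclear protein-coding genes, the i5 index as a covariate, a fit of the compared libraries, a threshold of 0.01, Spearman correlation and each library left out.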

Additional observations from a re-analysis of the deposited data

Results flagged for a closer look

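The sort difference depended on the region, by edgeR's interaction test, in *Wars* (adjusted p = 4.08e-06), which passed as higher in positive cells of the duodenum and in no other region. Of the list genes named, the same test passed in *Slc6a19* (5.41e-05), *Vars* (0.00155), *Slc36a4* (0.00578), *Tph1* (0.00950), *Naprt* (0.0106), *Kyat1* (0.0113), *Farsb* (0.0196), *Nqo1* (0.0230), *Hsp90ab1* (0.0372) and *Got2* (0.0427). It passed in 17.5% of all genes tested. *Slc6a19*, *Naprt* and *Kyat1* had their larger positive excess in jejunum and ileum, and *Vars*, *Farsb*, *Hsp90ab1* and *Got2* their larger deficit there. The deficit of *Nqo1* was larger in duodenum and jejunum than in ileum and colon, and that of *Tph1* smallest in the colon.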

How the results depend on the processing

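No paired analysis was run, because the labels carry no replicate numbers and name no mouse. The library numbers used here follow the order of the samples and were not taken to pair libraries. No called value of a member changed its sign. Of the members other than *Ido1*, *Wars* and *Cyp1a1* differed between regions of positive cells. The filter kept *Cyp1a1* through its duodenal libraries alone. *Tiparp* joined these members with DESeq2, RLE factors, library size alone, no filter or the index as covariate, 3 in place of 2. With single libraries left out there were 2 to 3. With at least 10 counts in every library, where *Ido1* and *Cyp1a1* are no longer tested, the ileal sort comparison gave 1 member, *Ahr*, in place of 0, the regions of positive cells 1, and the regions of negative cells 0 in place of 1. With library size alone, the regions of negative cells gave 2 members, *Wars* besides *Cyp1a1*. That scaling moved the median log2 fold change of all genes in the duodenum from -0.16 to 0.27. Leaving out single libraries, the colonic sort comparison gave 0 to 1 members, 1 without negative library 1. Of the other planned values, 52 moved, 11 came to pass and 8 no longer passed across settings, and 88, 8 and 52 across the libraries left out. The count of lower synthetases in the jejunum was 6 with library size alone, and the interferon-gamma genes higher in the duodenum were 8 there and in a model of the compared libraries alone. Depth limits *Ido1* in negative cells and the 5 members below the filter.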
